A study of Mus musculus with 24 samples.

Results

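The genes described are those of the cytosolic ribosomal proteins in mouse liver. Rows of the count table were taken when their mouse symbol began with Rpl or Rps followed by a digit or a p, leaving out 291 symbols marked -ps as processed copies, the Rps6k kinases, the mitochondrial Mrp genes and Rpl3, and when their mean level over 24 libraries was at least 1 CPM (counts scaled to library size, with TMM factors). The rule found 83 genes among 54532 rows, of which 44 belong to the large subunit, 3 to its stalk (Rplp0, Rplp1, Rplp2) and 36 to the small subunit. A further 8 symbols lay below the minimum. Just outside it were Rpl6l at 0.303, Rpl24 at 0.406 and Rpl36al at 0.425 CPM, and just inside were Rps27rt at 1.64, Rps10 at 1.68 and Rpl37rt at 2.19 CPM. The label did not hold for every row. Rps3a2, Rps3a3, Rps4l and Rpl37rt are annotated as pseudogenes, and Rps19bp1 encodes a protein that binds a ribosomal protein.

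Poly(A) RNA sequencing was carried out on livers of mice aged 12 to 16 weeks that were fed ad libitum and sampled every 4 h at Zeitgeber times (ZT) 4, 8, 12, 16, 20 and 24. One genotype was wild type (Hlf+/+/Dbp+/+/Tef+/+), and the other carried null alleles of all 3 PAR bZip transcription factors (Hlf-/-/Dbp-/-/Tef-/-, here triple knockout). Each of the 12 combinations of genotype and time had 2 libraries, whose names carry the letter I or P; the meaning of the letters was not given, and they are called set I and set P. Nothing in the labels says whether both libraries of a combination came from separate animals. The p-values below therefore reflect library-to-library spread alone, part of which may be technical. The processed copy Rps13-ps1, described below, was near absent or present in both libraries of a wild-type time together. If the libraries of a combination shared animals, set P would be no independent repeat of set I. Whether they did was not tested.

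The ribosome is built from a large and a small subunit, each made of ribosomal RNA and many proteins. Messages of most ribosomal proteins begin at a C within a run of pyrimidines, the 5′ terminal oligopyrimidine (TOP) motif, through which the mTOR pathway controls their translation. In liver, translation of these messages and ribosome production follow feeding and the day-night cycle. HLF, DBP and TEF are transcription factors under control of the circadian clock that bind D-box sequences and drive rhythmic genes of liver metabolism.

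RefSeq start sites (GRCm38.p6) were found for 61 of the 83 genes. The stretches below, each 30 bases from 15 before the start site to 15 from it on, are shown because the pyrimidine run at the start is the known mark of TOP messages. Capitals mark the longest run of C and T in each. The genes shown are only part of those named in the results that follow. Among other named genes the longest run had 2 bases in Rpl7l1, 3 in Rpl10 and Rps19bp1, 5 in Rpl37rt and 6 in Rps27rt. It had 10 bases in Rpl22l1 and 11 in Rpl4. At several starts it had 18 and 8 bases in Rpl34, and 9 and 4 in Rps27l.
Rpl18, chr7:45718056-45718085, plus strand: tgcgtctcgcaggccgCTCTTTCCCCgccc
Rps18, chr17:33955651-33955680, minus strand: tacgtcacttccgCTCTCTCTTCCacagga
Rps10, chr17:27635230-27635259, minus strand: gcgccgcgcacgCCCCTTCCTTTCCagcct
Rps26, chr10:128626492-128626521, minus strand: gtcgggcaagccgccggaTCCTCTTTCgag
Rpl27a, chr7:109519180-109519209, plus strand: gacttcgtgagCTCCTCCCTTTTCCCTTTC
Rplp2, chr7:141447636-141447665, plus strand: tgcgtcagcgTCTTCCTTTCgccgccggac
Rplp0, chr5:115559452-115559481, plus strand: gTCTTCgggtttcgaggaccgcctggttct
Rps3a1, chr3:86142654-86142683, minus strand: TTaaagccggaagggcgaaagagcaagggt
A run of 8 or more pyrimidines lay in 28 of the genes' 72 windows (38.9%), against 12.0% of all 32851 windows. The RefSeq starts of Rplp0 and Rps3a1 had no such run, and both genes were expressed. Windows of 300 bases, from 250 before the start, were also searched on both strands. The D-box letters TTATGTAA and their variant TTATGCAA occurred in 0 of 72 windows, against 0.938% and 0.743% of all windows. At shares this low, 0 is the likely count in 72 windows and does not set these genes apart. The ETS letters CCGGAAG were present in 34.7% of the genes' windows and 8.86% of all windows, and the YY1 letters AAGATGG in 16.7% and 6.34%. Such matches describe letters and not bound sites.

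Library depth ranged from 14613001 to 19288322 counts. The deleted genes were lower in every triple-knockout library than in any wild-type library: Dbp had at most 0.114 and at least 0.278 CPM, Hlf 3.34 and 46.9 CPM, and Tef 30.04 and 42.4 CPM, knockout first. In set I the wild-type libraries stood apart from the rest. Their gene levels, taken as deviations from each gene's median over the libraries, correlated with GC content across genes, with r from 0.211 to 0.648. The r of the other 18 libraries lay between -0.305 and 0.0537. The trend was steepest at ZT4, ZT16 and ZT20, where the deviations also fell with transcript length (r = -0.23, -0.25 and -0.27). Results are therefore given over all libraries and in set P alone. Of the hepatocyte markers, 6 of 9 (Alb, Apoa1, Ttr, Serpina1a, Tat, Hnf4a) fell in the knockout and 0 rose. Of all genes, 21.1% fell and 12.1% rose. In set P alone 3 of the 9 fell and 0 rose, against 6.33% and 6.71% of all genes. The 9 markers summed to 78291 to 107194 CPM in wild type and 51194 to 76284.5 CPM in knockout. Of 10 Kupffer cell markers 3 rose (Vsig4, Marco, Adgre1) and 0 fell, but 5 differences were below 0 and 5 above. The sets differed here. In set P 9 Kupffer cell markers were above 0 and 1 below (median 0.21), with 2 called higher and 0 lower. In set I 4 were above 0 and 6 below (median -0.15), and 0 were called. Sums of the Kupffer cell markers over all libraries were 520 to 983 CPM in wild type and 561 to 841 CPM in knockout. Their means were 702 and 701 CPM. Mean sums of stellate cell markers were 385 and 462 CPM, and of cholangiocyte markers 36.2 and 52.4 CPM, wild type first. In each of these 2 lists 1 marker fell and 1 rose. In set P 1 stellate cell marker rose and 0 fell, and 0 cholangiocyte markers were called. No list of liver cell markers was at 0. The part of such marker differences in the results below was not tested, and in whole liver fewer cells of a type and less RNA per cell cannot be told apart.

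The share of counts on ribosomal protein genes was lower in the triple knockout at 4 of 6 times and higher at ZT8 (0.981% against 0.952%) and ZT12 (0.959% against 0.882%, means of 2 libraries). In wild type the 83 genes held 0.844% to 1.32% of a library's counts (median 0.997%), and in triple knockout 0.874% to 0.986% (median 0.958%), so the groups overlapped. The highest shares were the wild-type set I libraries at ZT20 (1.32%) and ZT16 (1.24%), followed by the set P library at ZT16 (1.05%) and the set I library at ZT4 (1.04%). Set P wild-type libraries ranged from 0.908% to 1.05%. In the knockout, both libraries at ZT4 were the lowest, at 0.874% and 0.891%, and the mean over all 12 was 0.948% ± 0.0338 (SD). Spread across the 6 times differed as well. The median coefficient of variation of a gene was 27.1% in wild-type set I, 7.86% in wild-type set P, 7.23% in knockout set I and 7.14% in knockout set P.

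**Figure D1:**
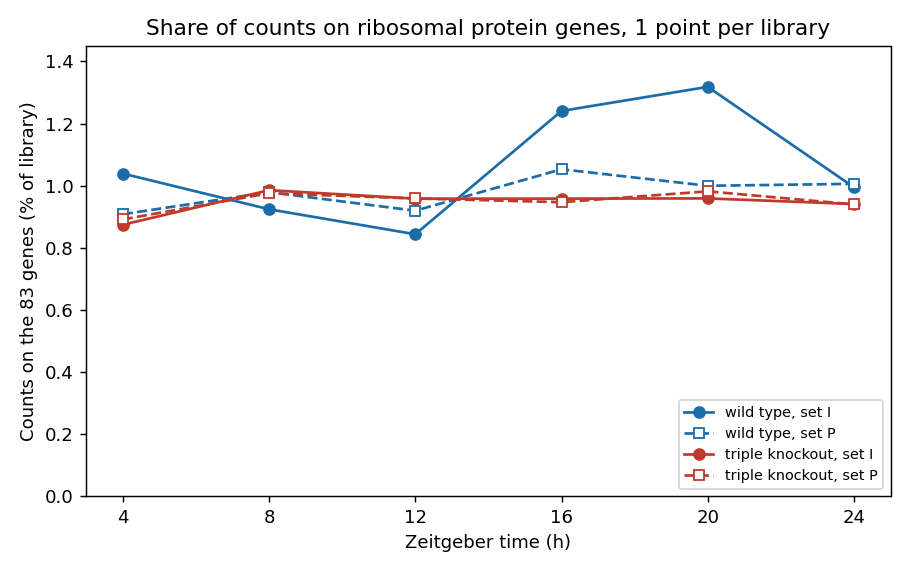
Share of each library's counts that fell on the 83 ribosomal protein genes (percent, y axis from 0) at each Zeitgeber time (h), with 1 point per library, lines joining libraries of 1 genotype and set, blue for wild type, red for triple knockout, filled circles for set I and open squares for set P. Wild-type set I libraries at ZT16 and ZT20 reached 1.24% and 1.32%, and all knockout libraries stayed between 0.874% and 0.986%.

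Averaged over the 6 times, 47 of the 83 genes fell in the triple knockout, 3 rose and 33 were not called (edgeR quasi-likelihood test, adjusted p under 0.05 over 15090 genes). Over all genes tested, 21.1% fell and 12.1% rose. The median log2 difference, knockout minus wild type, was -0.30 for the 83 genes and -0.02 for all genes, and 73 of the 83 were below 0. The quartiles of the 83 differences were -0.37 and -0.15. With the set letter as a block, 59 genes fell and 5 rose, the added rises being Rpl5 and Rpl22l1. Under the block 27.2% of all genes fell and 25.1% rose. In set P alone, 14 fell and 3 rose (6.33% and 6.71% of all genes), the median was -0.13, and 74 were below 0. Set I alone had 20 that fell and 3 that rose (14.2% and 17.8% of all genes), with a median of -0.44.

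Of the 36 small-subunit genes, 24 fell and 1 rose, with a median log2 difference of -0.32. Of the 44 large-subunit genes, 22 fell and 2 rose, with a median of -0.28, and 1 of the 3 stalk genes fell. In set P alone, 9 small-subunit genes fell and 0 rose, 5 large-subunit genes fell and 3 rose, and 0 stalk genes were called. The 14 genes that fell in set P alone were Rpl10a, Rpl12, Rpl18, Rpl28, Rpl32, Rps13, Rps15a, Rps16, Rps18, Rps26, Rps27, Rps27l, Rps3a2 and Rps4l, and all 14 had also fallen over 24 libraries. Of these, Rpl10a, Rpl18, Rps13, Rps15a, Rps18 and Rps27l were called lower in the analysis of all libraries and in each of the 12 alternatives other than leaving out single libraries. The share of all genes called in all of these settings was not computed. Slopes used the longest annotated transcript of each gene, with 1618, 2989, 2363, 5179, 1151 and 575 bases in this order. The median protein-coding transcripts had 634, 543, 953, 638, 543 and 499 bases. Whether slopes on those lengths would keep the calls was not tested.

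**Figure D2:**
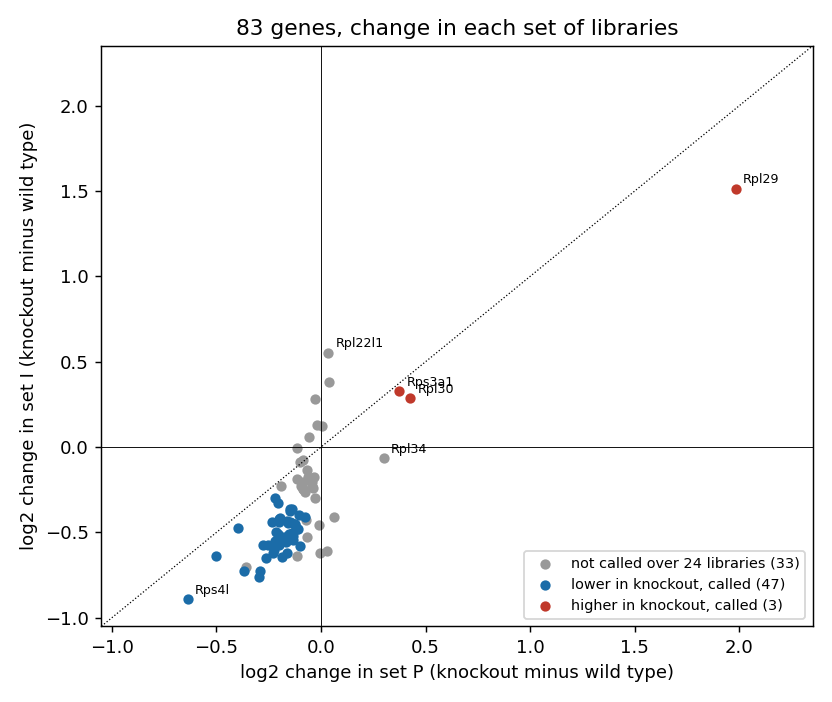
Log2 difference between triple knockout and wild type, averaged over 6 times, for each of 83 genes in set P (x axis) and set I (y axis), 1 point per gene; the dotted line marks equal values and colours give the call over 24 libraries. Most points lie at the lower left and below the dotted line, with medians of -0.13 in set P and -0.44 in set I, and Rpl29 stands alone at the upper right.

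Rpl18, a large-subunit protein gene, is annotated at chr7:45715457-45720836, from 5.25 kb past the end of Dbp. The RefSeq start shown above lies further from Dbp, within chr7:45718056-45718085. Only Rpl18 of the 83 was lower in all 12 knockout than in all 12 wild-type libraries, a pattern held by 0.921% of all genes. Its wild-type level had a lowest value of 92.9, a median of 105.5 and a highest of 217.5 CPM, against 74.01, 83.6 and 89.2 CPM in triple knockout. The 3 highest wild-type values were the set I libraries at ZT20, ZT16 and ZT4. The log2 difference was -0.53 ± 0.11 (SE, adjusted p = 0.0037), and in set P alone it was -0.29 ± 0.05 (adjusted p = 0.0057). Within 10 Mb of a deleted gene lay 7 of the 83 genes. Of these 3 fell (Rpl18, Rpl8, Rpl19) and 0 rose, with a median of -0.31, against 44 falls, 3 rises and a median of -0.30 among the other 76.

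Rps18, a protein of the head of the small subunit, had 188 CPM as its lowest, 219.7 as its median and 399.6 as its highest level in wild type, and 156, 176 and 193 CPM in triple knockout. The groups overlapped only through the wild-type set P library at ZT4 (188 CPM), which was below the knockout libraries at ZT12 of set I (189 CPM) and ZT20 of set P (193 CPM). The log2 difference was -0.47 ± 0.10 (adjusted p = 0.0038) over all libraries and -0.26 ± 0.06 (adjusted p = 0.012) in set P. Rps27l, a paralogue of Rps27 that responds to p53, went from 123 ± 30.1 to 90.6 ± 5.91 CPM (SD, n = 12 per genotype), a log2 difference of -0.42 ± 0.09 (adjusted p = 0.0032) and of -0.25 ± 0.06 in set P (adjusted p = 0.019).

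Rps4l, a retrotransposed copy of Rps4x, had the most negative difference of the called genes over all libraries. Wild-type levels were 6.12 at the lowest, 8.64 in the median and 14.0 CPM at the highest, and knockout levels were 3.56, 5.27 and 9.41 CPM. Knockout values were within the wild-type range in both libraries at ZT4 (9.41 and 7.85 CPM) and in the set I libraries at ZT16 and ZT24 (6.25 and 6.20 CPM), and the other 8 were below it. The log2 difference was -0.78 ± 0.11 (adjusted p = 2.0e-04) and -0.64 ± 0.12 in set P (adjusted p = 0.0061). It was -0.38 (adjusted p = 0.041) with a GC slope removed from each library and -0.28 (adjusted p = 0.088) with the block and both slopes. Rps4x itself, with 289 ± 40.9 CPM in wild type and 258 ± 23.9 CPM in triple knockout, was not called (log2 difference -0.16 ± 0.06, adjusted p = 0.060), and was called lower under the block (adjusted p = 0.037).

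A pair of thinly covered genes was called lower with less support. Rps10, a small-subunit protein whose gene drew few counts, went from 2.01 ± 0.676 to 1.34 ± 0.268 CPM, a log2 difference of -0.57 ± 0.17 (adjusted p = 0.024), and in set P of -0.37 ± 0.21 (adjusted p = 0.28). The call was lost (adjusted p up to 0.065) when the wild-type set I library at ZT4, ZT12, ZT16 or ZT20 was left out, and the difference was 0.0256 with the set letter as a block and length and GC slopes removed. Rps27rt, a retrotransposed copy of Rps27, went from 1.97 ± 0.767 to 1.31 ± 0.319 CPM (log2 difference -0.57 ± 0.19, adjusted p = 0.032). Its call was lost in 12 of 24 omissions of 1 library, with an adjusted p of at most 0.077: wild type of set I at ZT4, ZT8, ZT12, ZT16 and ZT20, wild type of set P at ZT24, knockout of set P at ZT4, ZT8, ZT12 and ZT16, and knockout of set I at ZT20 and ZT24. Rpl10, the large-subunit protein that is loaded late in assembly, was close to the threshold (445 ± 104.7 against 370.1 ± 23.9 CPM, log2 difference -0.25 ± 0.09, adjusted p = 0.042). Its call was kept in 5 of 24 such omissions, those of the set P libraries of wild type at ZT4, ZT8, ZT16 and ZT20 and of knockout at ZT20.

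In the stalk, which recruits translation factors to the large subunit, Rplp2 fell from 122 ± 24.3 to 100.6 ± 8.47 CPM (log2 difference -0.26 ± 0.07, adjusted p = 0.014), and in set P its difference was -0.22 ± 0.07 (adjusted p = 0.074). Rplp0 had 202 ± 51.1 CPM in wild type and 168 ± 23.8 CPM in triple knockout (log2 difference -0.26 ± 0.10, adjusted p = 0.053), and was called under the block (adjusted p = 0.035). Rplp1, the gene with the highest level per kb of transcript, had 324 ± 78.2 and 289 ± 14.5 CPM (log2 difference -0.15 ± 0.08, adjusted p = 0.125). Correction for length and GC trends together with the set letter as a block turned the differences of Rplp2 to 0.0755 and of Rplp1 to 0.35, the latter called higher (adjusted p = 0.011). Of the paralogues and like genes, 3 were not called over all libraries. Rpl7l1, a nucleolar assembly protein, differed by -0.24 ± 0.09 (adjusted p = 0.054), Rps19bp1 by -0.34 ± 0.14 (adjusted p = 0.069) and Rpl22l1, a paralogue of Rpl22, by 0.28 ± 0.13 (adjusted p = 0.098). Under the block all 3 were called, with adjusted p = 0.035, 0.043 and 0.024. In set P the corresponding differences were -0.01, -0.00 and 0.03.

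Rpl29, a large-subunit protein gene at chr9:106429454-106431568, moved against the group. It had a lowest level of 10.99, a median of 14.4 and a highest of 26.8 CPM in wild type, and 36.7, 48.8 and 77.3 CPM in triple knockout. Every knockout library was above every wild-type library, a pattern held by 0.596% of all genes. Mean levels were 16.3 ± 4.93 and 54.8 ± 15.1 CPM (SD, n = 12 each), and the log2 difference was 1.74 ± 0.15 (adjusted p = 1.7e-06) over all libraries and 1.98 ± 0.15 (adjusted p = 1.4e-05) in set P. It was called higher in all 36 alternatives, at 1.51 to 2.33. Knockout libraries of the same time could differ. At ZT4 the set I library had 68.3 and the set P library 45.7 CPM, at ZT20 the order was 37.8 and 66.6 CPM, and at ZT12 both had 44.1 and 44.3 CPM. Its 3 marked copies with counts summed to 0.286 ± 0.0869 CPM in wild type and 0.325 ± 0.187 CPM in triple knockout.

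The Rps3a1 locus, which encodes a small-subunit protein that contacts translation initiation factors, rose unevenly. Wild-type libraries lay between 52.6 and 69.0 CPM. Of the knockout libraries, 7 had 48.6 to 65.4 CPM, and the other 5 were above every wild-type value, at 173.7 CPM (set I, ZT16), 120.2 and 109.5 CPM (both sets, ZT8), 107.5 CPM (set P, ZT16) and 100.1 CPM (set P, ZT20). The mean went from 61.2 ± 5.99 to 84.5 ± 38.0 CPM, a log2 difference of 0.38 ± 0.10 (adjusted p = 0.013). In set P it was 0.37 ± 0.13 (adjusted p = 0.089). Both processed copies Rps3a2 and Rps3a3, nearly identical in sequence to the parent so that the split of counts among the 3 is uncertain, were low in 4 of those 5 libraries. Rps3a3 had 0.658 CPM in the set I library at ZT16, 21.4 and 25.7 CPM at ZT8 and 30.5 CPM in the set P library at ZT16, against 37.6 to 49.0 CPM in the other 8 knockout libraries and 39.1 to 54.8 CPM in wild type. Rps3a2 had 1.26 CPM in the set I library at ZT16, and its mean went from 8.40 ± 1.03 to 6.04 ± 2.18 CPM (log2 difference -0.56 ± 0.16, adjusted p = 0.019). The sum of the 3 genes was 116 ± 10.6 CPM in wild type and 127 ± 24.2 CPM in triple knockout, with 175.6 CPM in the set I knockout library at ZT16. Without that library the difference of Rps3a3, chosen for mention after its values were seen, was -0.29, against -0.46 ± 0.32 (adjusted p = 0.25) with it. Without the set P knockout library at ZT16 the difference was -1.20. Either omission left a single library in that group, which has no spread of its own, so only the differences are given. The same holds for every omission of a single library here, where calls rest on the spread of the other groups. The size of the Rps3a3 difference thus depended on which knockout library at ZT16 was left out.

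**Figure D3:**
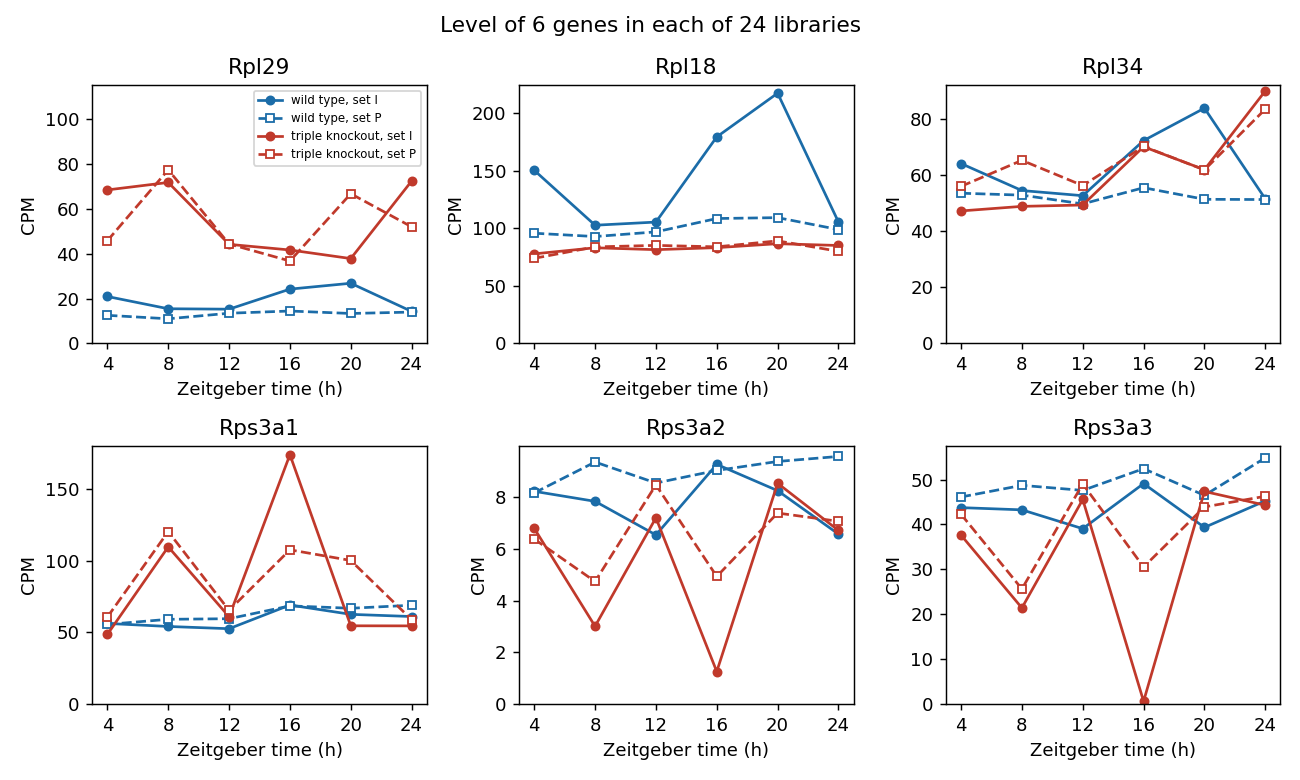
Levels (CPM, y axes from 0) of Rpl29, Rpl18, Rpl34, Rps3a1, Rps3a2 and Rps3a3 at each Zeitgeber time (h), with 1 point per library, lines joining libraries of 1 genotype and set, blue for wild type, red for triple knockout, filled circles for set I and open squares for set P. Rpl29 is above every wild-type value in all knockout libraries, and in the set I knockout library at ZT16 Rps3a1 reaches 173.7 CPM where Rps3a3 has 0.658 CPM.

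Rpl30, a large-subunit protein that can repress its own synthesis, went from 18.8 ± 1.66 to 24.3 ± 3.28 CPM (log2 difference 0.37 ± 0.08, adjusted p = 0.0053), and by 0.43 ± 0.09 in set P (adjusted p = 0.010). Its wild-type values were 15.8 at the lowest, 18.6 in the median and 21.1 CPM at the highest, its knockout values 18.5, 23.5 and 31.6 CPM, and 11 of 12 knockout libraries were above every wild-type library. Correction for each library's GC trend turned the difference to -0.10 (adjusted p = 0.66). That correction used the longest annotated transcript of Rpl30, which has 2412 bases and a GC content of 39.1%. This content lay below the 40.97% under which 1509 of the genes tested fell. The median protein-coding transcript of the gene has 570 bases, and a correction on its GC content was not tested. Rpl34 was not called over all libraries (57.9 ± 10.5 against 63.5 ± 13.5 CPM, log2 difference 0.12 ± 0.09, adjusted p = 0.27) and was called higher in set P (0.30 ± 0.08, adjusted p = 0.029). Its highest knockout values, 90.1 and 83.6 CPM, were those of both sets at ZT24, where its copy Rpl34-ps1 had 0.174 and 0.673 CPM, against 1.78 to 3.59 CPM in the other knockout libraries and 2.62 to 6.997 CPM in wild type.

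Processed copies of other genes in the list differed in level between the genotypes, and between wild-type times. Rps13 and Rps15a, small-subunit proteins chosen for mention after their values were seen, fell by 0.43 ± 0.08 (adjusted p = 0.0011) and 0.43 ± 0.07 (adjusted p = 5.8e-04) on the log2 scale. In wild type Rps13-ps1 had at most 0.121 CPM in both sets at ZT4, ZT12 and ZT24, and 16.9 and 5.52 CPM at ZT8, 13.3 and 5.22 CPM at ZT16 and 15.6 and 3.31 CPM at ZT20, set I first. All 12 knockout libraries had 9.51 to 14.2 CPM. Libraries of the same time thus shared presence or absence of the copy, whatever their set. Summed with all its marked copies, Rps13 went from 97.3 ± 23.1 to 79.8 ± 4.35 CPM, a ratio of 0.82, against 0.736 for the gene alone. Rps15a with its 8 copies went from 138.02 ± 17.0 to 112 ± 7.92 CPM, a ratio of 0.81, against 0.738 alone. Whether reads of parent and copy were exchanged was not tested.

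Of 4 ribosome proteins with other names, 3 fell. Rpsa, a small-subunit protein that doubles as a laminin receptor, fell from 498 ± 154.6 to 349 ± 21.7 CPM (log2 difference -0.48 ± 0.10, adjusted p = 0.0031). Rack1, the scaffold on the small-subunit head, differed by -0.47 ± 0.10 (adjusted p = 0.0039) and Fau, the fusion precursor of RPS30, by -0.39 ± 0.08 (adjusted p = 0.0032). In set P all 3 were called lower, at -0.31, -0.25 and -0.28. With a GC slope removed from each library the difference of Fau was 0.0468 (adjusted p = 0.76).

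Counts in other lists of the translation pathway stand beside 21.1% of all genes that fell and 12.1% that rose over all libraries, and beside 6.33% and 6.71% in set P. Of 19 translation factors with TOP messages, 8 fell and 1 rose over all libraries (median log2 difference -0.11), and 0 fell and 1 rose in set P. Eef1g, a subunit of the elongation factor eEF1B, differed by -0.35 ± 0.08 (adjusted p = 0.0062) and in set P by -0.17 (adjusted p = 0.096). RNA polymerase I transcribes ribosomal RNA. Of 15 genes of this polymerase and of ribosomal RNA transcription, 7 fell and 2 rose (median -0.24). In set P 2 of them fell and 1 rose (median -0.07). Among the falls over all libraries were the catalytic subunits Polr1b (-0.58 ± 0.11, adjusted p = 0.0017) and Polr1a (-0.40 ± 0.08, adjusted p = 0.0019). Both subunits were called in set P as well, at -0.33 and -0.30. Of 79 genes of ribosome assembly, 32 fell and 1 rose (median -0.05), and 5 fell and 4 rose in set P, with Pes1, a large-subunit assembly factor, at -0.44 ± 0.09 (adjusted p = 0.0023) and -0.23 in set P (adjusted p = 0.029). Of 23 genes of the mTOR pathway, 7 fell and 2 rose (median -0.12), and 1 fell and 1 rose in set P. They included Eif4ebp1, an inhibitor of cap-dependent translation, at -0.44 ± 0.10 (adjusted p = 0.0059) and -0.23 in set P (adjusted p = 0.085). Akt1s1, an inhibitory subunit of mTORC1, was at -0.47 ± 0.09 (adjusted p = 0.0021) and at -0.39 in set P (adjusted p = 0.044). With a GC slope removed from each library it was at -0.043 (adjusted p = 0.84). Mitochondrial ribosomal proteins, which serve a separate ribosome, had 50 falls and 1 rise among 77 genes (median -0.31), and 12 falls and 0 rises in set P (median -0.13).

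The difference between the genotypes varied with time in the fitted values, but no gene passed the test for it. The median log2 difference of the 83 genes was -0.38 at ZT4, -0.05 at ZT8, -0.00 at ZT12, -0.51 at ZT16, -0.60 at ZT20 and -0.17 at ZT24, where the median of all genes stayed between -0.02 and 0.00. In set P alone the same medians were -0.15, -0.01, -0.02, -0.28, -0.08 and -0.18, and in set I -0.56, -0.11, 0.02, -0.69, -1.03 and -0.16. Set P thus had its most negative value at ZT16, with 74 of 83 genes below 0, and 78 of 83 were below 0 at ZT24. At ZT20 the sets differed most, with 73 genes below 0 in set I and 50 in set P. The edgeR test of genotype by time called 0 of 83 genes (0% of all genes), with 4 at an unadjusted p under 0.05, and DESeq2 called 0 as well. The smallest p was that of Rps3a1 (unadjusted p = 0.0089, adjusted p = 0.57), followed by Rpl36, Rpl27a and Rplp2 (adjusted p = 0.67, 0.71 and 0.74).

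The wild-type set I libraries with the strongest GC trend were also those with the highest ribosomal protein levels. In wild-type set I the deviations of the 83 genes from each gene's median level had a median of 0.87 at ZT20, 0.63 at ZT16 and 0.35 at ZT4 (log2). The r with GC there was 0.648, 0.609 and 0.581. In set P the wild-type medians were between -0.00 and 0.21, and r between -0.21 and 0.05. The longest annotated transcripts, from which length and GC content were taken, were short in the 83 genes. Their median was 1047 bases against 3145 bases for all genes, with a median GC content of 50.9% against 49.2%. Of the 83, 47 were at most 1115 bases long, as were 1510 of the genes tested. The straight line through all other genes at each member's length and GC content gave a median log2 difference of -0.08 over all libraries, where the 83 genes had -0.30. In set I the corresponding values were -0.10 and -0.44, and in set P -0.04 and -0.13. In set P 67 of 83 genes lay below that line.

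**Figure D4:**
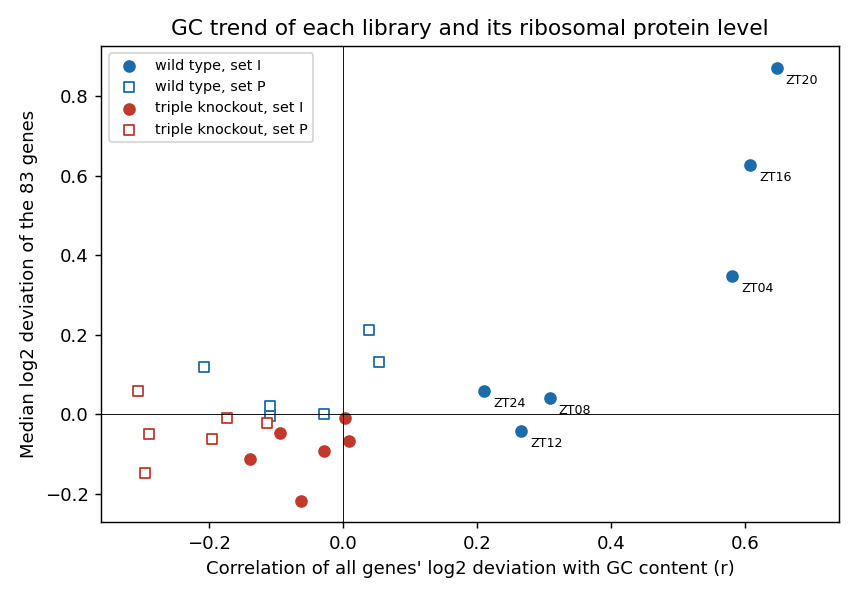
Median log2 deviation of the 83 genes from each gene's median over the libraries, in each library (y axis) against the correlation of all genes' log2 deviations with GC content in that library (x axis, r), 1 point per library, blue for wild type, red for triple knockout, filled circles for set I and open squares for set P. The wild-type set I libraries at ZT4, ZT16 and ZT20 lie apart, with r above 0.58 and medians of 0.35 to 0.87, and the other libraries have medians between -0.22 and 0.21.

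Within the 83 genes the trend was weaker than over all genes. The correlation of the log2 difference with GC content was -0.12 over the 83 genes and -0.35 over 15081 genes with a known length, and in set P it was 0.05 and -0.13. With log2 transcript length the values were 0.09 and 0.14, and in set P -0.00 and 0.06. These correlations are across genes that share libraries and are given as descriptions. With slopes removed from each library in place of that line, the members' median of -0.30 moved nearer to 0. It was -0.13 with a length slope removed, with 28 falls and 5 rises (20.4% and 11.9% of all genes). It was -0.16 with a GC slope removed, with 39 falls and 3 rises (16.3% and 15.2%). With the block and both slopes it was -0.06, with 31 falls and 10 rises (18.6% and 22.3%), and the median of all genes was 0.05. Of the falls, 28 with the length slope and 29 with the GC slope were genes that had fallen without the correction. The length slope ended the calls of Rpl10, Rplp2, Rps10, Rps26, Rps27rt and Rps3a2 and took Rps27l from -0.42 to -0.16 (adjusted p = 0.021). Set P with both slopes removed had 10 falls and 3 rises, and all 10 were among the 47. The part of the GC and length trends in the change over all libraries was not tested beyond these values.

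A 24 h rhythm was fitted for each genotype. In wild type 6 of 83 genes were called rhythmic (8.67% of all genes): Rps26, Rpl7l1, Rpl8, Rpl36, Rplp1 and Rpl27a, with amplitudes of 0.28 to 0.37 (log2, mean to peak) and peaks from 19.4 to 20.3 h. Over all 83 genes the median amplitude was 0.25 and 76 peaks fell between 18 and 24 h, during the dark phase when mice feed. In triple knockout 0 were called (3.57% of all genes, 1 at an unadjusted p under 0.05, DESeq2 also 0), the median amplitude was 0.08 and 52 peaks fell between 12 and 18 h. For all genes tested the median amplitudes were 0.23 and 0.17. The test of the difference in rhythm called 0 genes (0% of all genes), with 9 at an unadjusted p under 0.05, and DESeq2 called 0. The smallest p was that of Rpl36 (unadjusted p = 0.0049, adjusted p = 0.71), so a loss of rhythm was not shown.

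The called rhythms were largest in set I. Rps26, a small-subunit protein at the messenger RNA exit, had 160.3 and 123.3 CPM in the wild-type set I libraries at ZT20 and ZT16, 103.8 and 105.6 CPM in those of set P, and 86.7 to 89.6 CPM in all 4 libraries at ZT8 and ZT12. In triple knockout it stayed between 80.0 and 91.1 CPM. The wild-type amplitude was 0.28 with a peak at 20.2 h (adjusted p = 0.020). Rpl7l1 had 151.2 and 93.4 CPM at ZT20 and 75.7 and 65.7 CPM at ZT12, set I first, with an amplitude of 0.37 (adjusted p = 0.024). Rpl8, a protein near the peptidyl transferase centre, had 427.0 and 254.4 CPM at ZT20 and 198.6 and 193.8 CPM at ZT8 (amplitude 0.32, adjusted p = 0.025). Its genotype difference, -0.31 ± 0.08 (adjusted p = 0.010) over all libraries, was 0.0564 with a GC slope removed from each library. Set P alone gave 0 wild-type rhythms, with a median amplitude of 0.11 and 56 peaks between 18 and 24 h. Leaving out the set I wild-type library at ZT20 left 1 gene, that at ZT8 1 gene and that at ZT4 raised the count to 33. Without the set P wild-type libraries at ZT16 and ZT20 the counts were 10 and 25. The share of all genes called rhythmic was not computed for set P alone or for these omissions. Whether the counts differ from that share is therefore not known.

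**Figure D5:**
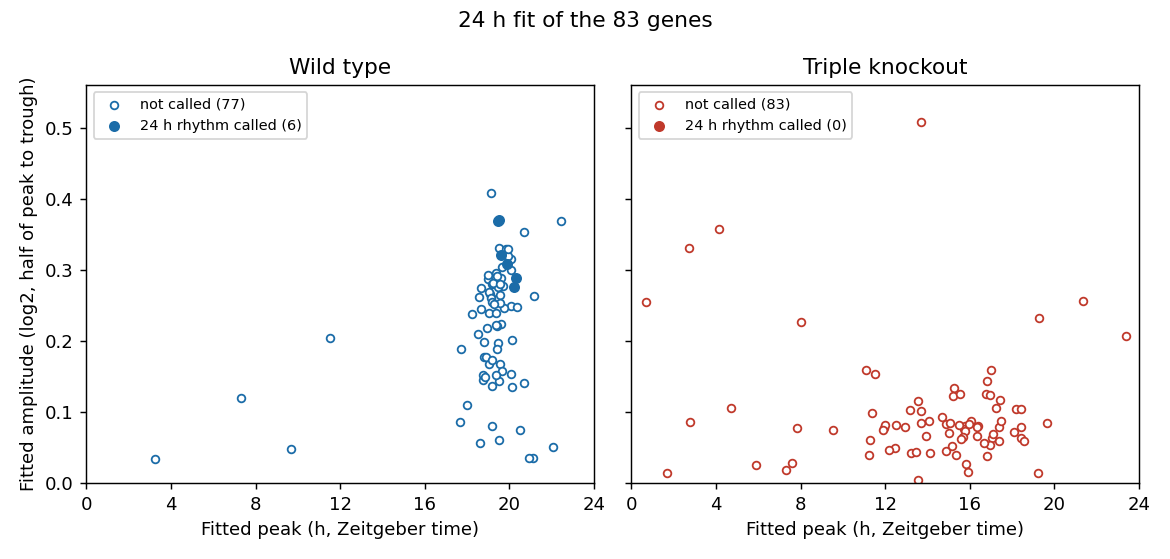
Fitted amplitude (log2, mean to peak, y axis from 0) against fitted peak time (h, x axis) of the 83 genes in wild type (left, blue) and triple knockout (right, red), 1 point per gene, filled where the 24 h rhythm was called. In wild type 76 of 83 peaks lie between 18 and 24 h and 6 genes are called, and in the knockout most amplitudes are near the median of 0.08 and 0 genes are called.

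In the knockout the 4 smallest p-values for a rhythm were those of Rps3a1, Rps4l, Rpl34 and Rps27a, a ubiquitin fusion of a small-subunit protein. Their amplitudes were 0.51, 0.33, 0.26 and 0.12 with peaks at 13.7, 2.7, 21.4 and 15.2 h, and their adjusted p-values were 0.17, 0.36, 0.36 and 0.41. Rps3a1 and Rpl34 were highest in the knockout libraries named above, where their processed copies were low.

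Levels per kb of transcript spanned a wide range. Rplp1 had 614 CPM per kb, Rpl10 438 and Rpl4, an early-assembling large-subunit protein, 305 CPM per kb. At the other end were Rps10 with 1.89, Rpl37rt with 3.22 and Rps27rt with 4.39 CPM per kb. By the median length of protein-coding transcripts Rpl10 had 564 CPM per kb and Rps10 2.48, and Rpl4 was placed 9th. Rpl4 had 451 ± 71.0 CPM in wild type and 489 ± 30.5 CPM in triple knockout (log2 difference 0.12 ± 0.09, adjusted p = 0.26). Rpl24 and Rpl13a, core large-subunit proteins, had 0.406 and 4.62 CPM, the former below the minimum. How reads shared with near-identical copies were counted is not given in the sources used here.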

How the data were processed

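The deposited table held raw counts per gene for 24 libraries. Per the submitters' processing notes, reads were aligned with STAR 2.4.0i to mm10, and per the labels' protocols the libraries were made with a stranded mRNA kit; the counting step is not given in the sources used here. The 83 genes, the other lists and the rule for naming genes were chosen with earlier results of these data known. Genes named were the largest rises and falls, the smallest p-values of each test, the highest and lowest levels per kb, the stalk and paralogue genes and the top genes of each list; all other names, among them Rps13, Rps15a, Rps3a3, Rps4x, Rpl5, Rpl13a, Rpl19, Rpl24 and the members listed as lower in set P, were chosen after their values were seen.

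Counts were scaled by TMM, filtered with filterByExpr (minimum count 10) to 15090 genes, and fitted in edgeR 4.0.16 (R 4.3.3) with 12 group means. The genotype contrast averaged over 6 times, its interaction with time, and a 24 h cosine fit per genotype were tested by quasi-likelihood F-tests, with Benjamini-Hochberg adjustment over all genes. Scripts were tested on simulated data. Symbols, lengths and GC content came from the GENCODE M21 annotation (54495 of 54532 rows matched). Length and GC content were those of the longest annotated transcript of each gene, which need not be the one sequenced. Depth was 14613001 to 19288322 counts per library. Deviations of same-letter libraries from their group means correlated across genotypes at r = 0.12 to 0.32 in the 6 times over the 11333 genes whose log2 CPM averaged 1 or more, and above 0.1 in 3 of 6 times over all tested genes, so the letter was used as a block in an alternative. Other alternatives were DESeq2 1.42.0, its size factors, no filter, slopes on length and GC, each set alone and omission of libraries. The omission of the 3 wild-type set I libraries at ZT4, ZT16 and ZT20, and set P with both slopes, were chosen after seeing the data. Some items are not reported here.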

Additional observations from a re-analysis of the deposited data

How the results depend on the processing

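The count of 47 genes lower in the knockout was 28 with a length slope, 31 with the set letter as a replicate block and both slopes, 14 in set P alone, 20 in set I alone, 31 without the 6 wild-type set I libraries and 10 in set P with both slopes, and it was 59 under the replicate block alone. With single libraries left out it ranged from 35 (without the wild-type set I library at ZT16) to 67 (without the wild-type set P library at ZT20). The share of all genes called lower also moved, from 21.1% to 20.4% with the length slope, 18.6% with the block and both slopes, 8.47% without the 6 wild-type set I libraries, 5.75% in set P with both slopes, 13.5% in the 35-gene omission and 28.1% in the 67-gene omission. The 3 rises became 5 under the block, 5 with the length slope and 10 under the block with both slopes, and 3 to 6 with single libraries left out (6 without the wild-type set P library at ZT20). Wild-type rhythms, 6 in all libraries, were 17 with DESeq2, 1 with no filter, 3 with the length slope, 2 without the wild-type set I libraries at ZT4, ZT16 and ZT20, and 0 in set P alone, set I alone, without the 6 wild-type set I libraries and in set P with both slopes, and ranged from 1 to 33 with single libraries left out. Interactions were 1 with no filter and 0 to 1 with single libraries left out (1 without the knockout set P library at ZT16), knockout rhythms 1 without the 6 wild-type set I libraries and 0 to 1 with single libraries left out (1 without the knockout set I library at ZT12), and differences in rhythm 0 in each such omission. The shares of all genes with a called rhythm or interaction were not computed for these alternatives, so those counts stand without a background. Fewer libraries entered the fits that left out a set. The cause of the other shifts was not tested. With a GC slope the differences of Rpl30, Rpl8 and Fau turned to -0.0989, 0.0564 and 0.0468, and with the block and both slopes Rpl30, Rpl8, Fau, Rpl36, Rplp1, Rplp2 and Rps10 were at -0.0225, 0.16, 0.19, 0.43, 0.35, 0.0755 and 0.0256. The interaction could not be fitted in 1 set alone, where each group had 1 library.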
